A study of Mus musculus with 24 samples.

Results

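The Dlk1-Dio3 domain on mouse chromosome 12 is an imprinted region, and 4 of its mature miRNAs are described here: mmu-miR-494-3p, mmu-miR-370-3p, mmu-miR-134-5p and mmu-miR-300-5p, written below without the species prefix. They were taken by name from the 1881 miRNAs of the array, and the choice was made with their toosendanin-against-control values known, so those differences are given as a description, with no test. Serum exosome RNA from male BALB/c mice was hybridised to 24 one-colour mouse miRNA arrays. Control mice received vehicle, and the other mice received toosendanin (TSN, a triterpenoid of the chinaberry tree that injures the liver) at 80 mg/kg, for 3, 9 or 21 days, with serum taken a day after the last dose. Each of the 6 groups held 4 arrays. The labels give no age, and whether 1 mouse or several gave each serum sample is not in them.

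In this domain the protein-coding genes, among them Dlk1 and Dio3, are expressed from the paternal chromosome. The miRNAs and the long RNAs Meg3, Rian and Mirg are expressed from the maternal chromosome. Its miRNAs are known for high levels in the embryo, placenta and brain and for low levels in most adult tissues, the liver included. Exosomes are small vesicles that cells release, and the RNA in serum exosomes is a mixture from many tissues and blood cells. In such a mixture, fewer cells of a type and less RNA per cell cannot be told apart.

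All 4 miRNAs were found in the RefSeq miRNA table (GRCm38.p6), on the plus strand, and all lie between Dlk1 and Dio3. The mature sequences are printed 5′ to 3′ to show how unlike the 4 are, with the seed, bases 2 to 8, in capitals.
miR-370-3p: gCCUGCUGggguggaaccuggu
miR-494-3p: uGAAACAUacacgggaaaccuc
miR-300-5p: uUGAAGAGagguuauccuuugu
miR-134-5p: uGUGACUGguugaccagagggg
They are listed in order along the chromosome. miR-370-3p lies at chr12:109618305-109618326, within the span of Rian, 165.8 kb from the start of Dlk1. miR-494-3p follows at chr12:109715367-109715388, 97.1 kb further on. miR-300-5p lies at chr12:109724318-109724339, 9.0 kb after it, and miR-134-5p at chr12:109734145-109734166, another 9.8 kb on. The last 3 lie within none of the spans of Meg3, Rtl1, Rian and Mirg, the only genes checked. The 4 seeds all differ, and none of the 1679 mature mouse miRNAs of the table shares a seed with any of them. The G and C content runs from 36.4% in miR-300-5p to 45.5% in miR-494-3p, 59.1% in miR-134-5p and 68.2% in miR-370-3p.

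The array reads each miRNA with nested probes that pair with its 3′ end, 12 probes in all for the 4 miRNAs. They are printed 5′ to 3′ because the results for miR-370-3p and miR-300-5p differ between them, with the bases added to the shortest probe of each miRNA in capitals.
miR-494-3p, A_54_P2824: gaggtttcccgtgt
miR-494-3p, A_54_P4400: gaggtttcccgtgtA
miR-370-3p, A_54_P2726: accaggttccaccc
miR-370-3p, A_54_P2727: accaggttccacccC
miR-300-5p, A_54_P3373: acaaaggataacctctctt
miR-300-5p, A_54_P3374: acaaaggataacctctcttC
miR-300-5p, A_54_P3375: acaaaggataacctctcttCA
miR-300-5p, A_54_P3376: acaaaggataacctctcttCAA
miR-134-5p is read by 4 probes of 10 to 13 bases that pair with its last bases. The miR-300-5p probes are the longest, at 19 to 22 bases. No other mature miRNA of the RefSeq table holds the stretch that any of the 12 probes pairs with.

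The arrays differed in brightness by arm, and every value below is read against that. A probe is called well above background here when the scanner software marked more than 50% of its spots so. For 261 probes this held on all 24 arrays, and the 75th percentile of their signal ran from 73.5 to 609 on control arrays and from 737 to 1748 on TSN arrays. At most 351 miRNAs were well above background on a control array, and every TSN array had more, up to 471. The labelling spike-ins, synthetic RNAs added before labelling, were 3.26-fold brighter on TSN arrays at day 3, 3.24-fold at day 9 and 2.99-fold at day 21. No slide held both arms, so the arm and the slide cannot be told apart. Each array was divided by its own 75th percentile, and this scaled signal is given on the log2 scale, where 0 is the percentile of that array. Values of -6.21 are at the floor set for weak signals and have no order among themselves. The brightest probe stands for a miRNA unless another is named.

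Of the 4 miRNAs, miR-494-3p was well above background on all 24 arrays and was higher in TSN serum exosomes at each day, miR-300-5p was lower at each day, and miR-370-3p lay close to the control level at day 3, below it at day 9 and above it at day 21. miR-134-5p could not be set against control after scaling, because 11 of 12 control arrays were not well above background. These directions hold for the scaled signal of the chosen probes. On the scanner's own scale the signals of miR-494-3p, miR-370-3p and miR-134-5p were all several-fold brighter on TSN arrays, and that of miR-300-5p was about the same in both arms at days 3 and 9.

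miR-494-3p comes from the large miRNA cluster of the domain. On control arrays its scaled signal was 0.71, 0.88, 1.50 and 1.27 at day 3, 1.13, 1.36, 1.51 and 1.41 at day 9, and 0.82, 0.97, 1.61 and 0.99 at day 21. On TSN arrays it was 2.91, 2.75, 1.84 and 3.15 at day 3, 2.95, 2.46, 3.67 and 2.30 at day 9, and 3.74, 3.17, 3.41 and 3.83 at day 21. Every TSN array lay above every control array, whatever the day; the lowest TSN array, at 1.84, was a day-3 array, and the highest control array, at 1.61, was a day-21 array. The difference between the arms (TSN minus control, ± SE of the fit, n = 4 and 4) was 1.57 ± 0.29 log2 at day 3, 1.49 ± 0.29 at day 9 and 2.44 ± 0.29 at day 21. Among the 444 miRNAs tested, 14 had a higher difference at day 3, 22 at day 9 and 4 at day 21.

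The scanner signal of miR-494-3p showed the same order with a wider gap. It ran from 144 to 1855 on control arrays and from 3999 to 23293 on TSN arrays. The group means were 384 ± 223 (SD, n = 4) against 7987 ± 4074 at day 3, 390 ± 295 against 11621 ± 4790 at day 9, and 764 ± 762 against 17020 ± 5709 at day 21. That is 20.8-fold, 29.8-fold and 22.3-fold brighter on TSN arrays without scaling. The 75th percentile itself was 7.07-fold, 10.3-fold and 4.62-fold brighter, so miR-494-3p exceeded the brightness of its arrays at each day. Its level in TSN ran in the order day 21, day 9, day 3, with neighbouring days overlapping; the 3 control days overlapped one another.

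miR-370-3p, whose hairpin lies within Rian, was well above background on all 24 arrays and differed from control by less than 1 log2 unit after scaling. On control arrays its scaled signal was -2.81, -3.12, -2.81 and -2.68 at day 3, -2.86, -3.02, -2.61 and -2.69 at day 9, and -3.10, -2.88, -2.79 and -3.10 at day 21. On TSN arrays it was -2.62, -2.45, -3.41 and -2.26 at day 3, -3.50, -3.71, -2.82 and -3.31 at day 9, and -2.49, -2.75, -2.52 and -2.16 at day 21. The arms overlapped at days 3 and 9, and at day 21 every TSN array lay above every control array, by a gap between -2.79 and -2.75. The difference was 0.17 ± 0.21 log2 at day 3, -0.54 ± 0.21 at day 9 and 0.49 ± 0.21 at day 21 (SE, n = 4 and 4). The day-9 value changes sign with the probe and with the scaling: the shorter probe, A_54_P2726, gave 0.10, and scaling by the 75th percentile of all probes gave 0.054 relative to the median of all tested miRNAs. The scanner signal was 8.06-fold, 6.89-fold and 6.18-fold brighter on TSN arrays at days 3, 9 and 21, beside 7.07-fold, 10.3-fold and 4.62-fold for the 75th percentile.

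miR-134-5p, known as a brain miRNA that acts on dendritic spines through Limk1, was near the limit of the array. All 12 TSN arrays read it well above background, and of the 12 control arrays only 1 did, at day 21. Its scaled signal lay between -5.44 and -5.30 on the TSN day-3 arrays, between -5.76 and -5.47 at day 9 and between -5.51 and -5.28 at day 21. The control arrays, with 1 array of each day at the floor, spanned -6.21 to -5.17 at day 3, -6.21 to -5.79 at day 9 and -6.21 to -5.13 at day 21, so the arms overlapped at days 3 and 21. At day 9 all TSN arrays lay above all control arrays, which were not well above background. No fold is given after scaling, because the weakest measurable scaled signal on the dim control arrays lies above the TSN level. The scanner signal ran from 0.967 to 10.5 on control arrays, and was higher on every TSN array, up to 40.2. Its group means were 7.55-fold brighter in TSN at day 3, 12.6-fold at day 9 and 5.67-fold at day 21, beside 7.07-fold, 10.3-fold and 4.62-fold for the arrays as a whole.

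miR-300-5p, the 5′ arm of a hairpin in the same cluster as miR-494, moved the other way after scaling. On control arrays its scaled signal was -2.25, -2.67, -3.31 and -2.33 at day 3, -1.58, -2.68, -2.90 and -3.09 at day 9, and -2.66, -3.28, -2.81 and -3.78 at day 21. On TSN arrays it was -6.21, -5.24, -5.59 and -5.34 at day 3, -6.21, -6.13, -6.21 and -6.11 at day 9, and -4.46, -4.53, -4.55 and -4.91 at day 21. Every TSN array lay below every control array, and 1 TSN array of day 3 and 2 of day 9 were at the floor. The difference was -2.95 ± 0.30 log2 at day 3, -3.60 ± 0.30 at day 9 and -1.48 ± 0.30 at day 21 (SE, n = 4 and 4), and the first 2 of these use values at the floor. Only 3 of the 444 tested miRNAs had a lower difference at day 3, 5 at day 9 and 15 at day 21.

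Before scaling, the arms overlapped for miR-300-5p at each day. Its scanner signal was 26.7 ± 11.5 on control and 22.9 ± 6.42 on TSN arrays at day 3, 26.0 ± 15.7 and 19.7 ± 2.65 at day 9, and 37.4 ± 34.8 and 58.7 ± 16.2 at day 21 (SD, n = 4). These are ratios of 0.857, 0.757 and 1.57. The lower scaled signal is thus a scanner signal within the control range, read on arrays that were 4.62-fold to 10.3-fold brighter. It was well above background on 23 of 24 arrays, all 12 TSN arrays included.

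**Figure D1:**
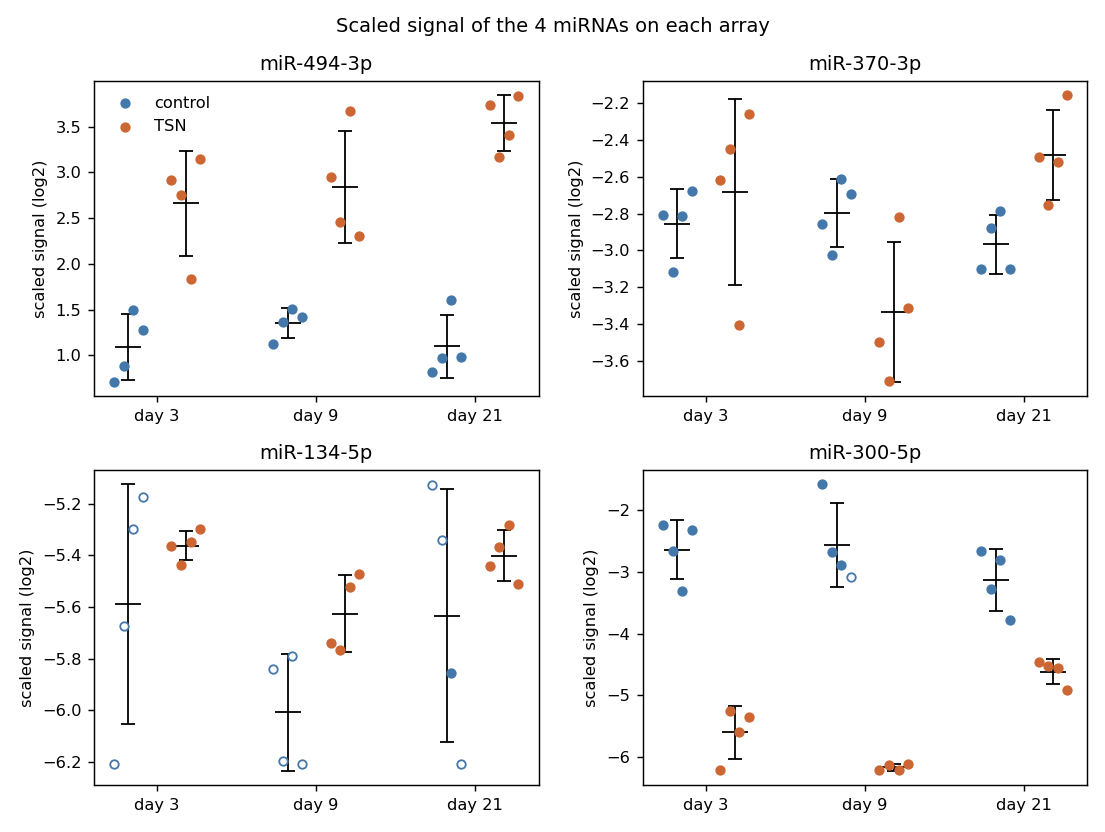
Scaled signal (log2, relative to the 75th percentile of each array) of the 4 miRNAs on each of the 24 arrays, by day and arm; filled points are arrays well above background, open points are not, and bars are mean ± SD of 4 arrays. All TSN points lie above the control points for miR-494-3p and below them for miR-300-5p (with the total gene signal that direction turns at days 3 and 9), with 11 of 12 control points open for miR-134-5p.

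Counted over the 4 miRNAs, the arms did not overlap for 1 higher and 1 lower at day 3, for 2 higher and 1 lower at day 9, and for 2 higher and 1 lower at day 21. One of the higher at day 9 is miR-134-5p, with no control array of that day well above background. Over all 444 tested miRNAs, 24.1% were higher with no overlap at day 3, 24.8% at day 9 and 20.7% at day 21, and 16.2%, 26.8% and 17.8% were lower. The 4 were chosen on this contrast, so nothing is read from their share.

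Brightness and signal could be compared within an arm as well as between arms. Within the groups of the control arm, the log2 signal of miR-494-3p rose by 1.23 per log2 unit of the 75th percentile, that of miR-370-3p by 1.13, that of miR-134-5p by 1.07 and that of miR-300-5p by 0.93 (12 arrays each). A slope of 1 is a signal in proportion to the brightness of the array. Within the TSN groups the slopes were 1.30 for miR-494-3p, 0.92 for miR-370-3p and 0.99 for miR-134-5p. For miR-300-5p it was 0.38. Pearson r between log2 signal and log2 percentile, over the 12 arrays of an arm with its groups pooled, was 0.81 to 0.99 in control. In TSN it was 0.66 for miR-494-3p, 0.39 for miR-370-3p, 0.89 for miR-134-5p and 0.19 for miR-300-5p. Differences between days enter r but not the slopes, so r does not show how well the slopes are set. No spread of the slopes is given. The slopes and r are descriptions: the points of an arm share a slide or a pair of slides, and the signal is itself read on the array whose brightness is the other axis.

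**Figure D2:**
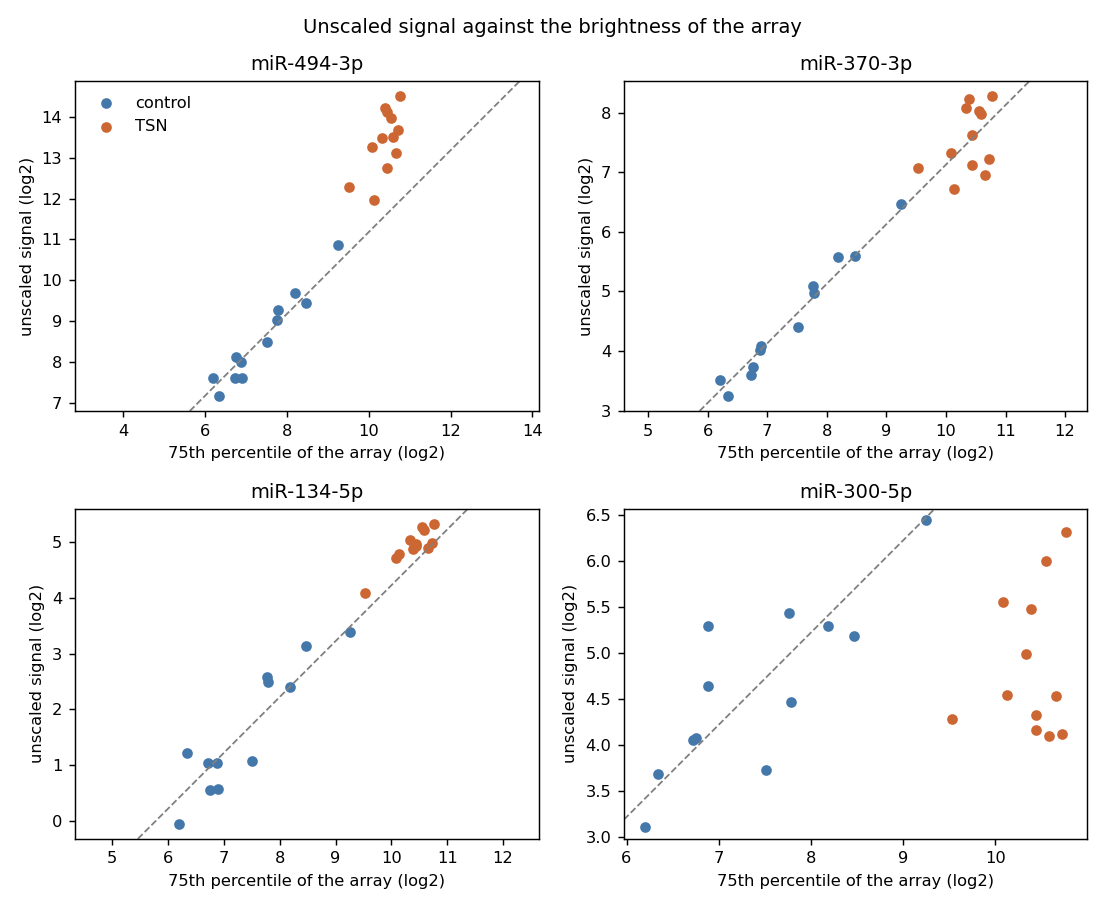
Unscaled signal (log2) of each miRNA against the 75th percentile of its array (log2), 12 control and 12 TSN arrays; the dashed line has a slope of 1 through the mean of the control arrays, which is where a signal in proportion to brightness would lie. TSN points lie above the line for miR-494-3p, near it for miR-370-3p, and below it for miR-300-5p; for miR-134-5p, 11 of the 12 control arrays were not well above background.

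Ratios of 2 miRNAs on the same array do not depend on the factor by which each array is divided. They compare probes, so their own level has no meaning and only their shift between arms is read. The ratio of miR-494-3p over miR-370-3p, both well above background on every array, ran from 3.52 to 4.39 log2 on control arrays and from 5.20 to 6.49 on TSN arrays. Its shift was 1.40 ± 0.18 log2 at day 3, 2.03 ± 0.22 at day 9 and 1.95 ± 0.14 at day 21 (TSN minus control, SE, n = 4 and 4). The ratio of miR-494-3p over miR-300-5p shifted by 4.59 ± 0.57, 5.21 ± 0.56 and 3.92 ± 0.35. That of miR-370-3p over miR-300-5p shifted by 3.20 ± 0.43, 3.18 ± 0.44 and 1.97 ± 0.32. The arms overlapped for none of the 3 ratios at any day. The 3 miRNAs were chosen with their arm differences known, so this separation is a description and no test. How many other pairs of tested miRNAs separate as well was not counted. With these probes, the 3 miRNAs differed between the arms by unequal amounts on the same arrays, whatever factor each array is divided by. Quantile normalization or another background correction can change the ratios, which were not computed with them. With normexp background correction, relative to the median of all tested, miR-494-3p differed by 3.33, 3.45 and 3.73 at days 3, 9 and 21. miR-370-3p then differed by 0.72, 0.081 and 0.61 and miR-300-5p by -0.46, -0.54 and -0.58. In the main setting miR-300-5p differed by -2.95, -3.60 and -1.48. The ratios over miR-300-5p rest on its single usable probe. With the scanner software's total gene signal in place of the probe, chosen as an alternative after seeing the data, miR-494-3p over miR-370-3p shifted by 1.43, 2.18 and 2.12, with no overlap. With that signal miR-494-3p over miR-300-5p shifted by 0.92, 0.51 and 5.36, with overlap at days 3 and 9, and miR-370-3p over miR-300-5p by -0.51, -1.67 and 3.23, so its direction turned at days 3 and 9.

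**Figure D3:**
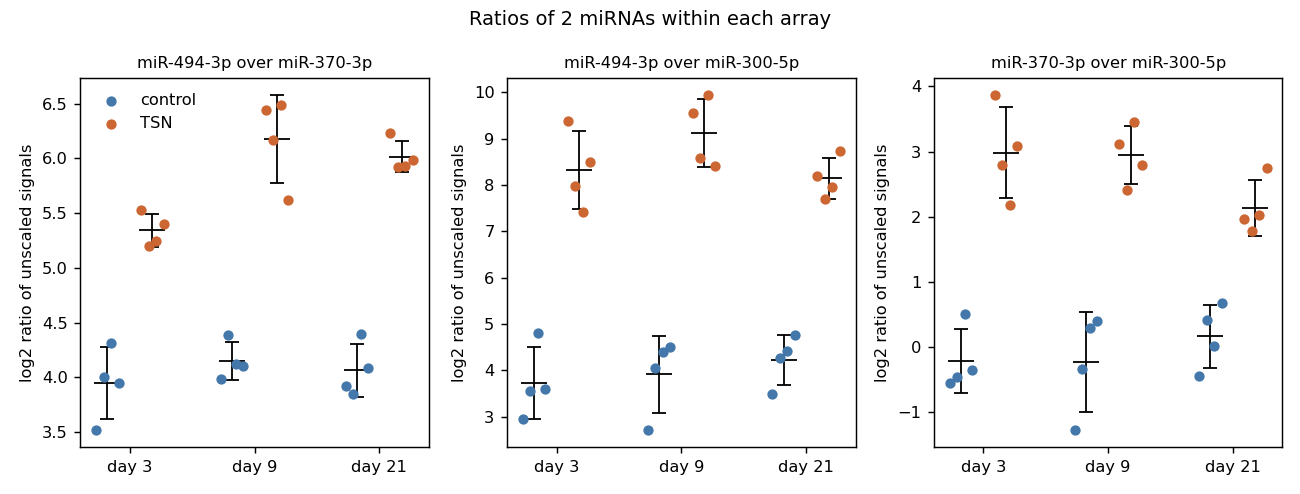
Log2 ratio of the unscaled signals of 2 miRNAs on each array, by day and arm, with mean ± SD of 4 arrays. All TSN points lie above all control points for each ratio; the shift of miR-494-3p over miR-300-5p is 4.59 at day 3, 5.21 at day 9 and 3.92 at day 21 (with the total gene signal, 0.92, 0.51 and 5.36, and miR-370-3p over miR-300-5p turns at days 3 and 9).

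The nested probes gave the arm difference again on the same arrays. For miR-494-3p, the longer probe gave 2.00, 2.07 and 2.95 log2 at days 3, 9 and 21, larger than the chosen probe at each day. For miR-370-3p, A_54_P2726, well above background on 19 arrays, gave 0.47, 0.10 and 0.94. For miR-134-5p no difference is given for any probe, because nearly all control arrays were not well above background. For miR-300-5p, all 4 probes gave a lower scaled signal in TSN at each day, but A_54_P3374 alone was well above background on most arrays. The probes with 1 base fewer and 1 or 2 bases more were well above background on 3, 6 and 3 of 24 arrays, and sat at the floor on 12 to 13 of them. On every TSN array these probes were at the floor. Their scaled difference then cannot lie above 0, so they give no direction of their own. Unscaled, TSN over control was 0.473 to 0.625 at day 3, 0.337 to 0.487 at day 9 and 1.36 to 1.62 at day 21. The values for miR-300-5p thus rest on a single probe of 4. The scanner software's total gene signal, which should add up the 4 probes, matched their sum within 2% on 7 of 24 arrays for miR-300-5p, and with it the arm difference turned, to 0.63 at day 3 and 1.32 at day 9, and was -2.77 at day 21.

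**Figure D4:**
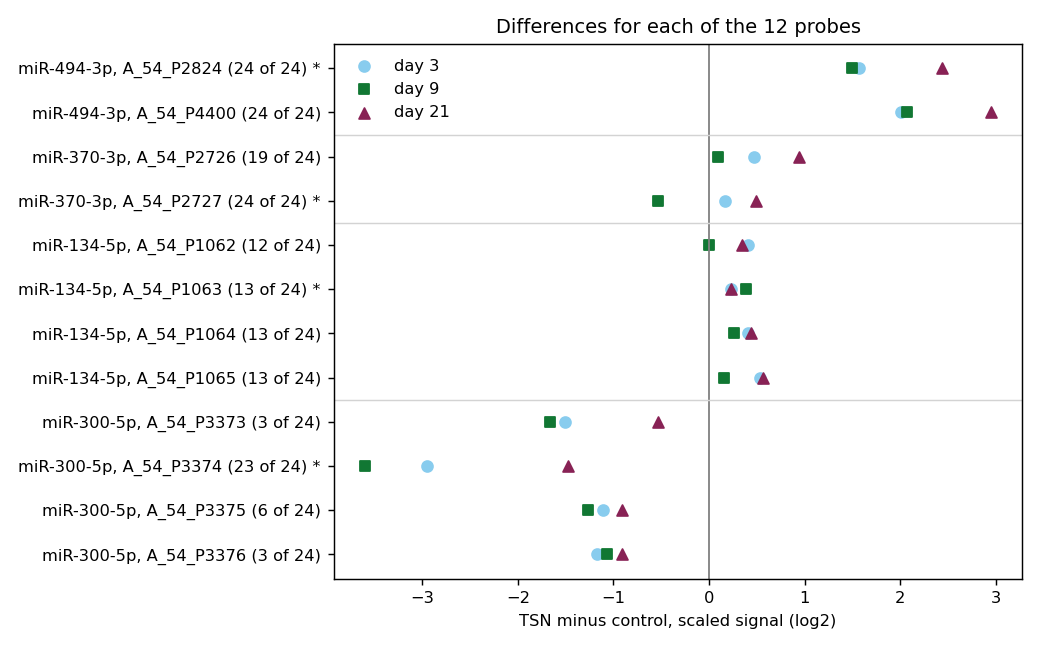
Difference in scaled signal between TSN and control (log2, means of 4 arrays each) at days 3, 9 and 21 for each of the 12 probes, with the arrays of 24 on which the probe was well above background in parentheses and the chosen probe starred. Both miR-494-3p probes lie to the right of 0, and the 2 miR-370-3p probes lie on either side of 0 at day 9. All 4 miR-300-5p probes lie to the left, but those without a star were at the floor on every TSN array and give no direction. The miR-134-5p points use control arrays that were nearly all not well above background and give no direction.

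Changes between days within an arm were tested with limma over all 444 miRNAs, with Benjamini-Hochberg adjustment and a threshold of 0.05. These tests use the same arrays as the contrast the 4 were chosen on. Control days 3 and 9 shared a slide, as did TSN days 9 and 21; in the other 4 comparisons the day and the slide cannot be told apart. Within the control arm none of the 4 passed: control day 9 against day 3, 21 against 9 and 21 against 3 called 0 of 4, also at an unadjusted p of 0.05. Over all tested miRNAs 9.68% were called higher and 4.28% lower at day 9 against day 3, 0.225% and 0.225% at day 21 against day 9, and 17.1% and 5.86% at day 21 against day 3. The control differences of miR-494-3p were 0.26 (95% interval -0.35 to 0.87), -0.26 (-0.87 to 0.35) and 0.01 (-0.60 to 0.61). With the next probe of miR-300-5p, A_54_P3373, which was well above background on 3 arrays, miR-300-5p did pass in control, at -1.13 for day 21 against day 9 (limma adjusted p = 0.0219) and -0.98 for day 21 against day 3 (limma adjusted p = 0.00587).

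Within the TSN arm, 2 of the 4 rose from day 9 to day 21, the only TSN comparison on a single slide. miR-300-5p rose by 1.55 ± 0.30 log2 (limma adjusted p = 0.000516), with all 4 day-21 arrays above all 4 day-9 arrays. Its scanner signal was 2.98-fold brighter. miR-370-3p rose by 0.85 ± 0.21 (limma adjusted p = 0.00276), again with no overlap. miR-494-3p differed by 0.69 ± 0.29 (limma adjusted p = 0.0591) and miR-134-5p by 0.22 ± 0.21 (limma adjusted p = 0.422), which did not pass; miR-494-3p passed with normexp background correction (0.86, limma adjusted p = 0.0378), without TSN day 9 replicate 3 (limma adjusted p = 0.00701) or without TSN day 21 replicate 2 (limma adjusted p = 0.0418). Of all tested miRNAs, 30.6% were called higher and 12.6% lower in this comparison, with a median of 0.18 log2.

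The rise of miR-300-5p did not pass with the authors' deposited values (0.46 relative to the median of all tested, limma adjusted p = 0.0667), with the mean of its 4 probes (0.39, p = 0.290) or with the next probe, which is at the floor on both days. With normexp background correction it was 0.18 (limma adjusted p = 0.662), and with the total gene signal it reversed. That of miR-370-3p did not pass without scaling (limma adjusted p = 0.391), with spike-in scaling (0.110 for labelling and 0.418 for hybridisation spike-ins) or with the 75th percentile over all probes (0.159). From day 3 to day 9 in TSN, miR-370-3p fell by 0.65 ± 0.21 (limma adjusted p = 0.020), with overlapping arrays; the call was lost in 9 of 13 other settings, with a limma adjusted p of 0.0939 (no filter) to 0.580 (no scaling). Among the 9 were the authors' values (limma adjusted p = 0.110), the shorter probe (0.326) and both spike-in scalings (0.237 and 0.565). It was also lost without TSN day 3 replicate 2 (limma adjusted p = 0.0671) or replicate 4 (0.0810), or without TSN day 9 replicate 1 (0.0569) or replicate 2 (0.0828). The other 3 did not pass, with differences of 0.18 for miR-494-3p, -0.26 for miR-134-5p and -0.57 for miR-300-5p. In that comparison 9.91% of tested miRNAs were called higher and 25.2% lower.

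From day 3 to day 21 in TSN, none of the 4 passed, and 2 of 4 had an unadjusted p under 0.05. miR-494-3p differed by 0.87 ± 0.29 (limma adjusted p = 0.0776) and miR-300-5p by 0.98 ± 0.30 (limma adjusted p = 0.0589), both with no overlap between the days. Without TSN day 3 replicate 2, miR-300-5p passed (limma adjusted p = 0.0494). Here 4.5% of tested miRNAs were called higher and 2.7% lower. Whether the arm difference itself changed between days was not tested for these miRNAs.

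Most other miRNAs of the domain were not detected. By their RefSeq positions, 112 mature miRNAs from 61 hairpins between Dlk1 and Dio3 had probes, and 99 of them were well above background on no array. Of the remaining 13, 4 were well above background on all 24 arrays: miR-370-3p, miR-882, miR-494-3p and miR-3072-5p. Another 5 were well above background on some TSN arrays and on no control array. None of miR-3070-2-3p, miR-432, miR-434-3p, miR-433-5p and miR-666-5p exceeded 7 arrays.

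**Figure D5:**
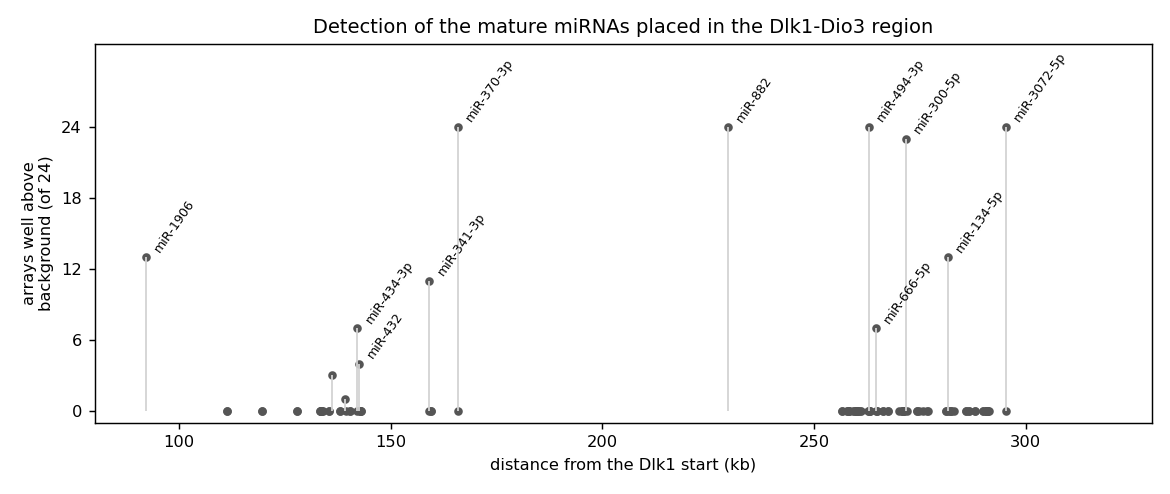
Number of arrays of 24 on which each mature miRNA of the domain was well above background, against its distance from the Dlk1 start (kb). Most points lie at 0, and miR-370-3p, miR-882, miR-494-3p and miR-3072-5p reach 24; the 2 arms of miR-1247, at 825.6 kb and well above background on 0 arrays, lie beyond the axis.

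Besides the 4, miR-1906, miR-341-3p, miR-434-3p, miR-882 and miR-3072-5p were tested. miR-1906 was placed within the span of Meg3 by its hairpin copy Mir1906-1, and copies outside the domain were not looked for. It was well above background on 12 TSN arrays and 1 control array, and its scanner signal reached 60.8. miR-3072-5p differed by -0.06, -0.53 and -0.05 log2 at days 3, 9 and 21; the arms overlapped at days 3 and 21, and at day 9 the TSN arrays, at -2.67 to -2.42, all lay below the control arrays, at -2.33 to -1.85. Over the 9 tested in the domain, the 4 included, the arms did not overlap for 2 higher and 2 lower at day 3, 3 and 3 at day 9, and 3 and 2 at day 21. Over all 444 tested, 24.1%, 24.8% and 20.7% were higher with no overlap at days 3, 9 and 21, and 16.2%, 26.8% and 17.8% lower. The higher ones include miR-1906 at each day and miR-134-5p at day 9, both with nearly all control arrays not well above background. Nothing is read from these counts. miR-882, 229.7 kb from the start of Dlk1, was lower by much the same amounts as miR-300-5p: -2.84 at day 3, -3.81 at day 9 and -1.52 at day 21. Its scanner signal in TSN was 0.979-fold, 0.730-fold and 1.62-fold that in control, beside 0.857, 0.757 and 1.57 for miR-300-5p. Of the 9 tested in the domain, 5 were called higher and 1 lower in TSN at day 21 against day 9, beside the 30.6% and 12.6% of all tested; their median was 0.53 log2, against 0.18 over all tested. The 5 were miR-1906, miR-370-3p, miR-882, miR-300-5p and miR-3072-5p, which rose by 0.53, 0.85, 1.59, 1.55 and 0.42.

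The 1 that fell was miR-434-3p, a member of the miRNA group antisense to Rtl1. It was also the 1 called higher in TSN at day 9 against day 3. All arrays of TSN days 3 and 21 were at the floor. The size of both differences is set by the floor and is not given. miR-434-3p was tested because it was well above background on every array of 1 group, and its signal was highest on TSN day 9. Both calls set that day against days at the floor. They thus follow at least in part from how it came to be tested, and nothing is read from them. The scanner signal of miR-434-3p was 19.1, 42.0, 23.6 and 53.9 on the TSN day-9 arrays and at most 13.5 on the other TSN arrays. The striated muscle list moved with it: the summed scaled level of miR-1a-3p, miR-133a-3p, miR-206-3p and miR-208a-3p was 0.193 to 1.17 on TSN day-9 arrays and 0.0567 to 0.135 elsewhere, with miR-206-3p and miR-208a-3p well above background on 0 arrays; its part in the result was not tested. In the TSN comparison of day 9 with day 3, 1 of the 9 was called higher and 4 lower, beside 9.91% and 25.2% of all tested. In the 3 control comparisons and in TSN day 21 against day 3, 0 of 9 were called; at an unadjusted p of 0.05 they were 0, 1, 1 and 3.

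Lists of tissue and blood cell miRNAs were read beside the 4. Brain-enriched miR-124-3p and miR-9-5p were well above background on 0 of 24 arrays, while miR-128-3p was on 24 and miR-219a-5p on 12; the summed scaled level of these 4 was 0.296 to 0.725 on control and 0.398 to 0.966 on TSN arrays. The red cell list (miR-451a, miR-144-3p, miR-486a-5p, miR-16-5p) was well above background on all 24, with a summed scaled level of 28.2 to 47.9 on TSN day-3 arrays, 74.9 to 94.4 at day 9 and 41.5 to 62.8 at day 21. On control arrays it reached 56.7, 65.6 and 94.5 at days 3, 9 and 21. The lowest miR-370-3p level of the TSN arm, at day 9, was on the arrays with its highest red cell level; the part of that in the result was not tested. The platelet and leukocyte list (miR-223-3p, miR-126a-3p, miR-142a-3p, miR-150-5p) did not overlap between the arms at any day. Its summed scaled level was higher in TSN at day 3, at 2.43 to 2.98 against 2.08 to 2.40. It was lower in TSN at day 9, at 1.73 to 2.14 against 3.07 to 3.79, and at day 21, at 2.04 to 3.02 against 3.31 to 7.12. The liver list (miR-122-5p, miR-192-5p, miR-148a-3p) was 0.477 to 1.01 in TSN and 0.310 to 0.485 in control at day 3, with overlap. At day 9 it was higher in TSN, at 0.509 to 4.89 against 0.287 to 0.446, with no overlap. At day 21 it was 0.442 to 0.610 against 0.398 to 0.923, with overlap. The part of any of these lists in the arm differences was not tested.

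The miRNAs with the most similar group profile were found for each of the 4, by the root mean square distance over the 6 group means after centring. miR-494-3p was nearest to miR-6366 (0.30 log2), miR-7042-5p (0.44) and miR-5100 (0.47), beside a median distance of 1.07 over 151 candidates. These neighbours were all higher in TSN than in control at each day. All neighbours here were picked on the same 6 group means. Their likeness in the arm differences follows from that choice and is no result of its own. miR-6366 differed between the arms by 1.09, 1.06 and 1.90 log2 at days 3, 9 and 21, beside 1.57, 1.49 and 2.44 for miR-494-3p. miR-370-3p was nearest to miR-7118-5p (0.07), miR-3472 (0.09) and miR-5112 (0.10), beside a median of 0.48. miR-134-5p was nearest to miR-1904 (0.11), miR-7005-5p (0.14) and miR-6908-5p (0.16), beside a median of 0.44. miR-300-5p was nearest to miR-882 (0.13), miR-883a-5p (0.20) and miR-7084-5p (0.21), beside a median of 1.35 over 152 candidates.

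Of the 3 neighbours of miR-300-5p, miR-882 lies in the same domain, whereas miR-883a lies on chromosome X and miR-7084 on chromosome 9. They do share letters. After the values were seen, the run GAGAG was found in all 4 of these RNAs, and it is in capitals here to show where it falls.
miR-300-5p: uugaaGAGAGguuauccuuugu
miR-882: agGAGAGaguuagcgcauuagu
miR-883a-5p: ugcuGAGAGaaguagcaguuac
miR-7084-5p: uagaggauagagguaGAGAGu
The first match begins at base 6, 3, 5 and 16, and in miR-882 a further match overlaps the marked one. GAGAG, searched on the RNA strand only and counted once for each miRNA, is in 65 of the 1679 mature miRNAs of the table (3.87%). It is in 44 of the 373 tested miRNAs with a sequence there (11.8%). Among the 40 tested miRNAs that hold it, these 4 left out, the median difference between the arms was -0.13 log2 at day 3, -0.71 at day 9 and -0.11 at day 21, against 0.13, 0.00 and 0.02 among tested miRNAs without it. The share below 0 was 62.5%, 85.0% and 52.5% with it and 37.7%, 48.0% and 45.0% without. The letters were picked after these differences were seen, so both the match and the shares are descriptions, with no test.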

How the data were processed

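The deposited values of the scanner files are intensity per spot; per the file headers, the Feature Extraction software had subtracted the background, with no scaling between arrays. The authors' deposited processed values were taken as log2 and used as an alternative; their scaling and centring stay unknown (column medians 4.37 to 4.40). Spots of a probe were averaged without control and outlier spots. Signals were divided by the array's 75th percentile over 261 probes, then a floor of -6.21 (log2) was set. The probe with the highest mean stood for a miRNA. Of 1881 miRNAs, 444 were well above background on every array of 1 group or more, and these entered 1 fit over the 6 groups (limma 3.58.1, R 4.3.3) with Benjamini-Hochberg adjustment over all 444. Values for each miRNA are in replicate order.

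The members, the locus list and the marker lists were chosen with earlier results of these data known. Named beside the members were the other tested miRNAs of the locus and, for each member, the 3 nearest profiles among miRNAs well above background on all arrays; the GAGAG letters were chosen after their values were seen. Positions and sequences are from RefSeq (GRCm38.p6), and probe sequences from the scanner files. Of the locus, 3 mature miRNAs on the array were added by position to the list written from memory, and 5 listed ones were not placed. The fit was also checked on generated values with known changes. Those values had no floor and no other difference between groups, unlike the data. The labels do not tie the samples of a group to separate animals, so the spread behind each p-value may be technical, and 4 arrays a group limit the precision. The labels number the samples 1 to 4 in each group and do not say that a number is shared between groups, so the main fit has no block.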

Additional observations from a re-analysis of the deposited data

How the results depend on the processing

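Values here are differences in log2 between TSN and control, relative to the median of all tested miRNAs where a setting moved that median by over 0.1; in the arm comparisons it moved by 2.05 to 2.45 without scaling, 2.16 to 2.45 with hybridisation spike-ins, 0.65 to 1.22 with labelling spike-ins, 0.18 to 0.80 with the 75th percentile over all probes and -1.70 to -1.17 with normexp. Call counts are miRNAs past an adjusted p of 0.05 in limma, with 62, 2, 102, 156, 192 and 32 in the report's setting for control day 9 against 3, 21 against 9 and 21 against 3 and for TSN in the same order. Over the 11 planned settings, miR-494-3p kept its direction at each day, miR-300-5p in 10, 10 and 11 of them at days 3, 9 and 21 and miR-370-3p in 10, 7 and 11. The causes of the changes below were not tested. The 75th percentile over all probes gave miR-494-3p 2.08 (day 9), miR-370-3p 0.054 (day 9), miR-134-5p -0.035 (day 9) and miR-300-5p -3.06 (day 9), with call counts of 32 (control 9 against 3), 109 (control 21 against 9) and 17 (TSN 21 against 3). Quantile normalization gave miR-494-3p 2.11 (day 21) and miR-134-5p 0.71 (day 9), with call counts of 7 (control 21 against 9). Labelling spike-ins gave miR-494-3p 2.02 (day 9), miR-370-3p -0.0075 (day 9) and miR-134-5p 0.045 (day 9), with call counts of 6 (control 9 against 3), 16 (control 21 against 9), 45 (control 21 against 3) and 10 (TSN 21 against 3). Hybridisation spike-ins gave miR-494-3p 2.30, 2.60 and 2.98 (days 3, 9 and 21), miR-370-3p 0.90, 0.57 and 0.98 (days 3, 9 and 21), miR-134-5p -0.55, -0.71 and -0.36 (days 3, 9 and 21) and miR-300-5p -2.29, -2.62 and -0.94 (days 3, 9 and 21), with call counts of 0 (control 9 against 3), 10 (control 21 against 9), 1 (control 21 against 3), 57 (TSN 9 against 3), 77 (TSN 21 against 9) and 12 (TSN 21 against 3). Unscaled values gave miR-494-3p 2.33, 2.60 and 2.94 (days 3, 9 and 21), miR-370-3p 0.93, 0.57 and 0.98 (days 3, 9 and 21), miR-134-5p -0.58, -0.77 and -0.31 (days 3, 9 and 21) and miR-300-5p -2.26, -2.64 and -0.98 (days 3, 9 and 21), with call counts of 0 (control 9 against 3), 17 (control 21 against 9), 0 (control 21 against 3), 56 (TSN 9 against 3), 71 (TSN 21 against 9) and 12 (TSN 21 against 3). Normexp (offset 50) gave miR-494-3p 3.33, 3.45 and 3.73 (days 3, 9 and 21), miR-370-3p 0.72 and 0.081 (days 3 and 9), miR-134-5p -0.0069, -0.080 and -0.083 (days 3, 9 and 21) and miR-300-5p -0.46, -0.54 and -0.58 (days 3, 9 and 21), with call counts of 0 (control 9 against 3), 11 (control 21 against 9), 20 (control 21 against 3), 69 (TSN 9 against 3), 92 (TSN 21 against 9) and 1 (TSN 21 against 3). Total gene signal gave miR-134-5p -0.996, -0.11 and 0.76 (days 3, 9 and 21) and miR-300-5p 0.63, 1.32 and -2.77 (days 3, 9 and 21), with call counts of 12 (control 9 against 3), 0 (control 21 against 9), 45 (control 21 against 3), 68 (TSN 9 against 3), 100 (TSN 21 against 9) and 10 (TSN 21 against 3). The day changes of miR-300-5p in TSN reversed with it, to -4.09 (21 against 9) and -3.50 (21 against 3). With it, added after seeing the data for the ratios, miR-494-3p over miR-300-5p shifted by 0.92, 0.51 and 5.36 and miR-370-3p over miR-300-5p by -0.51, -1.67 and 3.23 (days 3, 9 and 21), and miR-494-3p over miR-370-3p moved by less than the SD of its arrays. The mean of probes gave miR-370-3p -0.22 and 0.71 (days 9 and 21) and miR-300-5p -1.69, -1.90 and -0.96 (days 3, 9 and 21), with call counts of 6 (control 21 against 9). The authors' deposited log2 values gave miR-370-3p -0.014 (day 3) and miR-300-5p -1.03, -1.08 and -0.58 (days 3, 9 and 21), with call counts of 28 (control 9 against 3), 18 (control 21 against 9) and 17 (TSN 21 against 3). All 1881 miRNAs without a filter gave call counts of 11 (control 9 against 3), 0 (control 21 against 9), 52 (control 21 against 3) and 13 (TSN 21 against 3). The next probe by signal, chosen after seeing the data, gave miR-494-3p 2.07 and 2.95 (days 9 and 21), miR-370-3p 0.10 and 0.94 (days 9 and 21), miR-134-5p 0.15 (day 9) and miR-300-5p -1.51, -1.66 and -0.54 (days 3, 9 and 21). For miR-300-5p that probe was at the floor on every TSN array, so its values give no direction. The total gene signal of miR-300-5p equalled the sum of its probes' totals, within 2%, on 7 of 24 arrays. Counts of 0 in control day 9 against 3 had 6 miRNAs at an unadjusted p of 0.05 with hybridisation spike-ins, 5 unscaled and 11 with normexp; that in control 21 against 3 had 59, and those in control 21 against 9 had 60 with total gene signal and 150 with no filter. Leaving out each replicate in turn gave miR-494-3p 1.41 to 1.85 (day 3), 1.22 to 1.67 (day 9), 2.34 to 2.61 (day 21), miR-370-3p 0.03 to 0.41 (day 3), -0.71 to -0.41 (day 9), 0.38 to 0.58 (day 21), miR-134-5p 0.02 to 0.36 (day 3), 0.32 to 0.46 (day 9), 0.04 to 0.40 (day 21) and miR-300-5p -3.18 to -2.75 (day 3), -3.78 to -3.27 (day 9), -1.70 to -1.32 (day 21), and call counts of 20 to 68 (control 9 against 3), 63 to 101 (control 21 against 3), 0 to 28 (control 21 against 9), 123 to 182 (TSN 9 against 3), 13 to 38 (TSN 21 against 3) and 164 to 218 (TSN 21 against 9). The rise of miR-370-3p in TSN at day 21 against 9 and that of miR-300-5p stayed past the threshold in each of these; the change of miR-494-3p there passed without TSN day 9 replicate 3 (adjusted p = 0.00701 in limma) and without TSN day 21 replicate 2 (0.0418). With the replicate number as a block no call of the 4 changed: the miR-370-3p rise had an adjusted p of 0.00379 in limma, the miR-300-5p rise 0.000899, and counts were 44, 3, 93, 161, 190 and 26. Same-numbered arrays deviated together in all 4 pairs (r 0.20 to 0.36) in TSN against control at day 9 alone, where the block moved the SE of miR-494-3p from 0.29 to 0.30. Slide as a random block could not be fitted, since no group lay on more than 1 slide. Without a filter, most miRNAs had no spread, and that fit is unreliable. With the floor halved, TSN day 21 against 3 passed for miR-300-5p (adjusted p = 0.0424 in limma). For 1 of the 24 authors' columns another array correlated better than its own. For miR-134-5p, 11 of 12 control arrays were not well above background, so its values here give no size or direction.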
